A study of Mus musculus with 2 samples.

Results

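The genes described here make, load and recover GABA, glycine and glutamate, the fast transmitters of the spinal cord. They are the glutamate decarboxylase genes Gad1 and Gad2, the vesicular transporter genes Slc32a1, Slc17a6, Slc17a7 and Slc17a8, and the plasma membrane transporter genes Slc6a5, Slc6a9 and Slc6a11. They were chosen by name for these roles, and all 9 were found among the 43346 gene rows. The data are total RNA-seq of mouse neural tube, from which brain and cord develop, of strain B6NCrl at embryonic day 14.5. There was 1 group of 2 libraries, each from 10 ng of RNA with spike-in RNA, and the labels name no treatment or transgene. The labels give each library as a single tube, with pregnant dam 1 behind replicate 1 and dam 2 behind replicate 2, although their sex field reads as a male and female pool.

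With 1 group no contrast between conditions exists, and 2 values cannot give an exact two-sided p below 0.5, so no test was run. Levels are TPM (each gene's length-corrected part of all transcripts, so that genes can be set side by side), given for each library and as mean ± SD (n = 2). The expected counts, the estimated reads per row, totalled 33360108 in replicate 1 and 26025302 in replicate 2. All 10 neuron markers reached 1 TPM in both libraries and none of 10 forebrain markers did. Genes of adjoining tissue differed between the libraries: replicate 2 had at least 1.5 times the level of replicate 1 for all 9 measured sensory ganglion markers and all 10 meninges and fibroblast markers. The sensory ganglion markers summed to 67.4 and 421 TPM in replicates 1 and 2, and the meninges and fibroblast markers to 175 and 1338 TPM. The 7 endothelial markers (86.4 and 197 TPM) were all higher in replicate 2 by that threshold, as were 6 of 7 Schwann cell markers (25.2 and 84.4), while 6 of 7 skeletal muscle markers (42.4 and 21.6) were lower. In whole tissue, fewer cells of a type and less RNA per cell cannot be told apart.

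Inhibitory neurons of the cord make GABA from glutamate with the decarboxylases GAD67 (Gad1) and GAD65 (Gad2), and both GABA and glycine enter synaptic vesicles through VGAT (Slc32a1). Glycine neurons are marked by GLYT2 (Slc6a5), which takes glycine back into the terminal, whereas GLYT1 (Slc6a9) clears glycine into glia and GAT3 (Slc6a11) clears GABA, largely into astrocytes. Excitatory neurons load glutamate through VGLUT2 (Slc17a6), VGLUT1 (Slc17a7) or VGLUT3 (Slc17a8), and VGLUT2 is the main form in the embryonic cord and brainstem.

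Of the 9 genes, 7 reached 1 TPM in both libraries, and the same threshold was reached by 15053 of all 43346 gene rows. In falling order of mean level they were Slc17a6, Gad1, Slc6a11, Slc6a9, Gad2, Slc6a5 and Slc32a1. The library values of Slc17a6 and Gad1 overlapped, as did those of Slc6a9 and Gad2, although within each library Slc17a6 was above Gad1 and Slc6a9 above Gad2. The other neighbours in that order did not overlap. Slc17a7 and Slc17a8 stayed under 1 TPM, and their values overlapped, with the order reversed between the libraries.

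**Figure D1:**
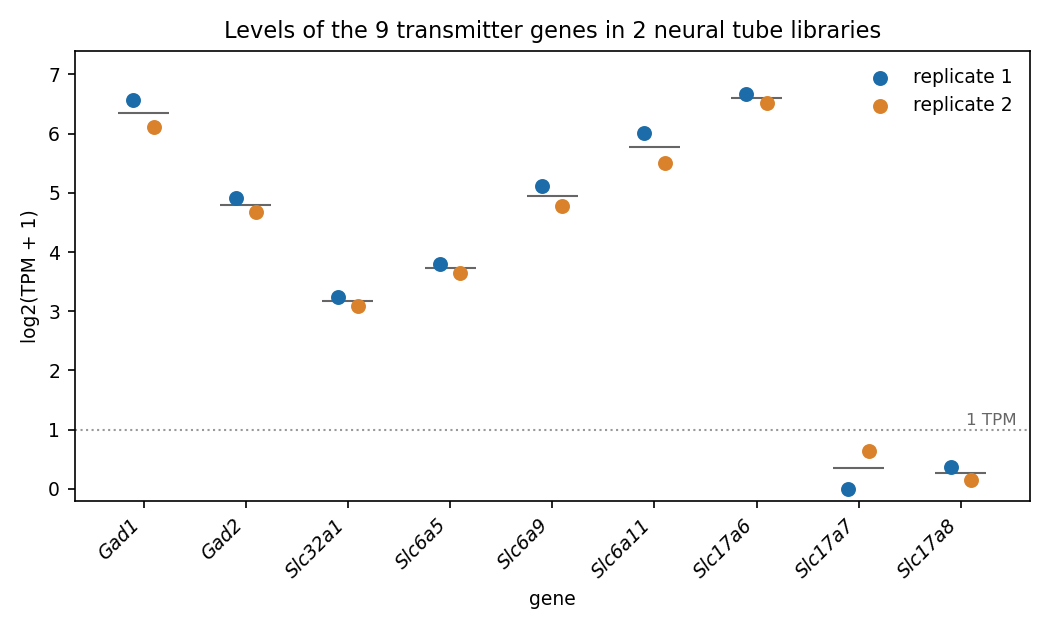
Level of each of the 9 genes on the log2(TPM + 1) axis, with 1 point for each library and a line at the mean. Slc17a6 and Gad1 lie highest, and Slc17a7 and Slc17a8 lie below the dotted line at 1 TPM in both libraries.

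The decarboxylase genes were both expressed, Gad1 above Gad2. Gad1 (ENSMUSG00000070880.6, chromosome 2, 70553072 to 70602014, GRCm38, plus strand) had 93.43 TPM in replicate 1 and 68.30 in replicate 2, from 5455 and 2895 counts. Its mean of 80.9 ± 17.8 TPM lay above 90.4% of protein-coding genes. Gad2 (ENSMUSG00000026787.3, chromosome 2, 22622205 to 22693874) had 29.18 and 24.42 TPM, a mean of 26.8 ± 3.37. Gad1 was thus the higher of the pair in both libraries, 3.2 times Gad2 in replicate 1 and 2.8 times in replicate 2, a log2(TPM + 1) difference of 1.55 ± 0.14 (SD, n = 2). Gad1 held 76.2% and 73.7% of the TPM of the pair, which summed to 122.6 and 92.7 TPM. These are levels of whole genes, with non-coding transcripts included. The full-length coding transcripts were closer, Gad1-201 at 27.78 and 19.73 TPM and Gad2-201 at 20.45 and 19.20. The level given to Gad1-201 is itself uncertain, as described next.

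Most Gad1 signal was assigned to a transcript with no annotated coding sequence. Of 8 annotated Gad1 transcripts, Gad1-206 had the highest level, at 57.56 and 40.51 TPM in replicates 1 and 2, or 61.6% and 59.3% of the gene. The full-length coding transcript Gad1-201, which encodes all 593 codons of GAD67, had 27.78 and 19.73 TPM, or 29.7% and 28.9%. The deposited credibility bounds of Gad1-206 were 53.2 to 63.6 and 35.7 to 46.9 TPM, and those of Gad1-201 were 19.7 to 29.4 and 11.3 to 21.9, so the bounds did not overlap in either library. A highest transcript without a coding sequence was found for 458 of 6921 protein-coding genes with at least 2 transcripts and a mean of at least 10 TPM, or 6.62%. Both Gad1 transcripts run to the last exon and have 2919 bases in common, including 14 exons with the same ends. They differ at the start, where Gad1-201 has 434 bases in 2 exons and Gad1-206 a single exon of 77 bases, and by a few bases at the very end. The division between them therefore rests on a short stretch, and the reads over it were not used here. Together they held 91.4% and 88.2% of Gad1 TPM.

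The starts of these transcripts are shown because they separate the coding from the non-coding form, and the extra exon because it marks the truncated form described next. They come from the GENCODE M21 transcripts on GRCm38, plus strand, 5′ to 3′. In the first, at chr2:70563832-70563910, capitals mark the start codon. In the second, whose exon lies at chr2:70566377-70566453 and holds 0 ATG triplets, capitals mark the first 13 bases of the next exon, which both transcripts share. In the third, the first 50 bases of the extra exon at chr2:70584420-70584469, capitals mark the stop codon TGA with the ATG that overlaps it.
Gad1-201 coding start: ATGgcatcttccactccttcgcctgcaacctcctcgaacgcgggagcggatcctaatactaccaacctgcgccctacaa
Gad1-206 first exon and junction: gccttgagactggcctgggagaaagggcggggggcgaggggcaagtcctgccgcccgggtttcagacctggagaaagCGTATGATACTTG
Gad1 extra exon: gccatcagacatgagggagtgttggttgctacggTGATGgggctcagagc

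Transcripts annotated with the exon of the embryonic form of Gad1 were given a low level in both libraries. This form includes an extra exon, known from embryonic brain, whose stop codon ends the reading frame and gives a short protein without the catalytic part. In the annotation that exon adds 34 coding bases before the stop, so that 223 codons are read in place of 593. Of the 3 transcripts that carry it, Gad1-205 had 4.19 and 4.03 TPM, with credibility bounds of 3.28 to 4.96 and 2.86 to 4.77. Gad1-203, which runs on past that exon, had 0.16 and 0 TPM, and Gad1-207 was listed at 0 in both. Gad1-205 ends at 70585121, beyond the 80 bases that the exon spans in Gad1-203. Reads over the splice junctions of the exon were not used here. Spliced RNA of this form and unspliced RNA therefore cannot be told apart in these counts. The 3 transcripts together held 4.66% of Gad1 TPM in replicate 1 and 5.9% in replicate 2, from 140 and 96.8 counts. Their summed level was nearly the same in the libraries, 4.35 and 4.03 TPM, whereas the transcripts that reach the last exon summed to 85.3 and 60.2 TPM. Transcripts with the start codon exon, truncated ones included, held 38.4% and 40.7%.

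**Figure D2:**
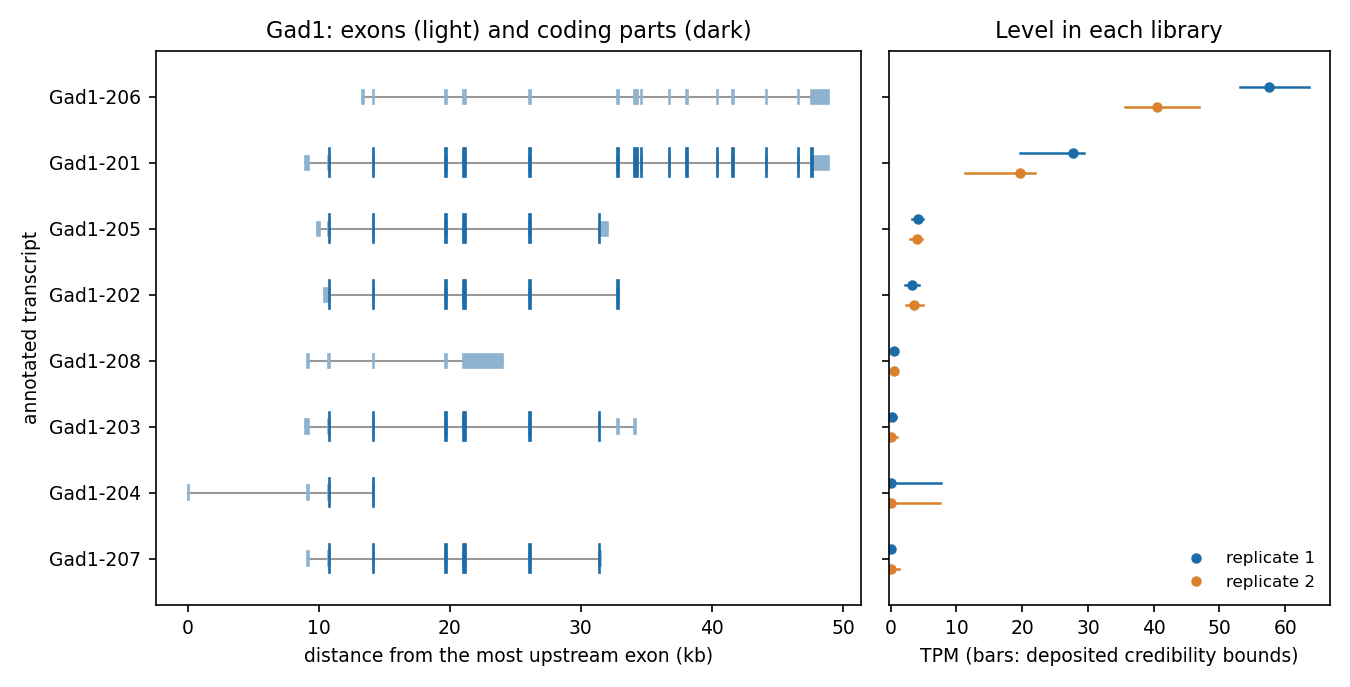
The 8 annotated Gad1 transcripts by distance from the most upstream exon in kb (left; the thinnest exons are drawn at a minimum width) and their TPM in each library with the deposited credibility bounds (right). Gad1-206, with no dark coding part, lies above Gad1-201 in both libraries, and Gad1-205, which ends at the extra exon, lies near 4 TPM.

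Other genes that could share reads with Gad1 had few. The antisense gene Gad1os, which overlaps it by 10286 bases, had 8 and 5 counts, and the processed copy Gad1-ps on chromosome 10 had 1 and 0. For Gad2, the full-length transcript Gad2-201 had 20.45 and 19.20 TPM. A short non-coding transcript, Gad2-202, had 8.74 and 5.22 TPM from only 110 and 48.6 counts.

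The vesicular GABA and glycine transporter had the lowest level of the 7 genes above threshold. Slc32a1 (ENSMUSG00000037771.11, chromosome 2, 158610767 to 158615748) had 8.45 and 7.55 TPM from 462 and 305 counts, a mean of 8.0 ± 0.636. It lay above 54.6% of protein-coding genes. Both library values lay below those of either decarboxylase gene, with no overlap.

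Slc17a6 supplied nearly all the vesicular glutamate transporter RNA. It (ENSMUSG00000030500.5, chromosome 7, 51622006 to 51671119) had 101.0 and 91.05 TPM from 8637 and 5752 counts, a mean of 96.0 ± 7.04, above 91.9% of protein-coding genes. Its share of the summed TPM of Slc17a6, Slc17a7 and Slc17a8 was 99.7% in replicate 1 and 99.3% in replicate 2. It exceeded Slc32a1, its counterpart in inhibitory neurons, 12.0-fold in replicate 1 and 12.1-fold in replicate 2, or by 3.43 ± 0.00 on the log2(TPM + 1) scale. The SD rounds to 0 because both libraries gave nearly the same ratio, and it does not measure the spread between animals well from 2 values.

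Slc17a7 and Slc17a8 were near the limit of detection. Slc17a7 (ENSMUSG00000070570.4, chromosome 7, 45163949 to 45176142), the transporter of cortical and of large sensory neurons, had 0 counts in replicate 1 and 24 in replicate 2, or 0 and 0.56 TPM. Its credibility bounds reached at most 0.0504 TPM in replicate 1 and ran from 0.352 to 0.787 in replicate 2. A count of 0 allows up to 3 counts, and set against that floor the 24 counts were 10.2-fold higher after scaling, while the exact 95% counting interval of the ratio starts at 7.64-fold. Slc17a8 (ENSMUSG00000019935.12, chromosome 10, 89574020 to 89621253, minus strand), also found in some sensory neurons, had 26 and 7 counts, or 0.29 and 0.11 TPM. The rare transporters thus differed in opposite directions, Slc17a7 higher in replicate 2 and Slc17a8 in replicate 1. Beside them, the forebrain markers summed to 0.23 and 2.13 TPM, and the sensory ganglion markers to 67.4 and 421 TPM as above. Emx2 and Eomes were among the forebrain markers at 0 counts in both libraries. Lhx6, the highest of that list, was higher in replicate 2, with 2 and 48 counts, or 0.10 and 1.34 TPM. The part of either cell type in these counts was not tested.

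The 250 bases upstream of Slc17a6 and of Slc17a7 are shown because Slc17a6 was the highest of the vesicular glutamate transporter genes and Slc17a7 was one of those near the limit of detection. They come from RefSeq on GRCm38.p6, plus strand, 5′ to 3′, from chr7:51621580-51621829 and chr7:45163671-45163920, with CG dinucleotides in capitals.
Slc17a6 upstream: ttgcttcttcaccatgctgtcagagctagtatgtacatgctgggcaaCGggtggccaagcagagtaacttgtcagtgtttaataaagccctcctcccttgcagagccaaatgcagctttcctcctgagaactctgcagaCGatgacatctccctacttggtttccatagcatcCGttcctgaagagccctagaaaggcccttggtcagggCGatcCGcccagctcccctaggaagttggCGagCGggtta
Slc17a7 upstream: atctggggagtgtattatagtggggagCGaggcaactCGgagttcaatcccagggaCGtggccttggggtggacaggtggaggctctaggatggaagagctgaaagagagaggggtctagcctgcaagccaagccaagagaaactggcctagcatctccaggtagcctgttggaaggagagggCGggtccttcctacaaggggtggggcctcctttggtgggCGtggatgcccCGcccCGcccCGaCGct
The window of Slc17a6 held 7 CG dinucleotides and that of Slc17a7 held 9, against a median of 6 over all 32851 windows of this length, so the window of the expressed gene held fewer than that of the rare one. Over the 14 windows listed for the 9 genes the count ran from 3, in the downstream windows of Slc17a6 and Slc17a8, to 25 for Slc6a11, with a median of 9. The letters TATAAA, searched on both strands, were found in the window of Gad1 and in none of the other 13, against 12.4% of all windows.

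Of the glycine transporter genes, Slc6a9 was higher than Slc6a5. Slc6a5 (ENSMUSG00000039728.10, chromosome 7, 49910146 to 49963856) had 12.98 and 11.51 TPM from 1832 and 1200 counts, above 60.2% of protein-coding genes. All of it was assigned to the longer of its 2 annotated transcripts. It exceeded Slc32a1, with which it is found in glycine neurons, by 1.54 and 1.52 times, or 0.56 ± 0.01 on the log2(TPM + 1) scale. Slc6a9 (ENSMUSG00000028542.13, chromosome 4, 117834506 to 117875198) had 33.47 and 26.49 TPM from 1404 and 733 counts, a mean of 30.0 ± 4.94. It was the higher of the pair by 2.58 times in replicate 1 and 2.3 times in replicate 2, or 1.22 ± 0.12 on the log2(TPM + 1) scale. These levels are of whole genes, and that of Slc6a9 includes short transcripts with few counts, given below. Its highest full-length coding transcript, Slc6a9-202, had 12.86 and 7.47 TPM, below Slc6a5 in each library.

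Slc6a9 transcripts started mainly at the upstream first exons. The gene has alternative starts that give transporter proteins with different N-terminal ends. Among its 12 annotated transcripts, the 6 that begin at the upstream exons held 84.2% and 82.9% of its TPM, and the 3 that begin at the downstream coding exon held 8.66% and 6.27%. The full-length coding transcript with the highest level was Slc6a9-202, at 12.86 and 7.47 TPM, with credibility bounds of 9.71 to 14.4 and 3.46 to 8.85 that did not overlap between the libraries. Slc6a9-201, which starts at another upstream exon and has the same number of coding bases, 1899, had 5.0 and 5.2 TPM. Its bounds of 3.15 to 7.05 and 3.17 to 8.0 overlapped between the libraries. The estimate was thus lower in replicate 2 for Slc6a9-202 and not for Slc6a9-201, whose bounds also allow a lower level there. The reads that divide these transcripts were not used here. The downstream form Slc6a9-209 had 2.11 and 0.99 TPM, with bounds that reach down to nearly 0 in both. A short non-coding transcript, Slc6a9-206, had 8.34 and 8.42 TPM from only 65.8 and 49.03 counts, and is counted with the upstream starts.

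Both coding starts are shown because they are the ends by which the proteins differ. They come from the GENCODE M21 transcripts on GRCm38, plus strand, 5′ to 3′, at chr4:117843106-117843135 and chr4:117849380-117849466. Capitals mark the annotated start codons, of which the downstream exon holds 2.
Slc6a9 upstream start: ATGgtaggaaaaggtgccaaagggatgttg
Slc6a9 downstream start: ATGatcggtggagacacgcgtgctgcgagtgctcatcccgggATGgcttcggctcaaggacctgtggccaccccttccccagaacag

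**Figure D3:**
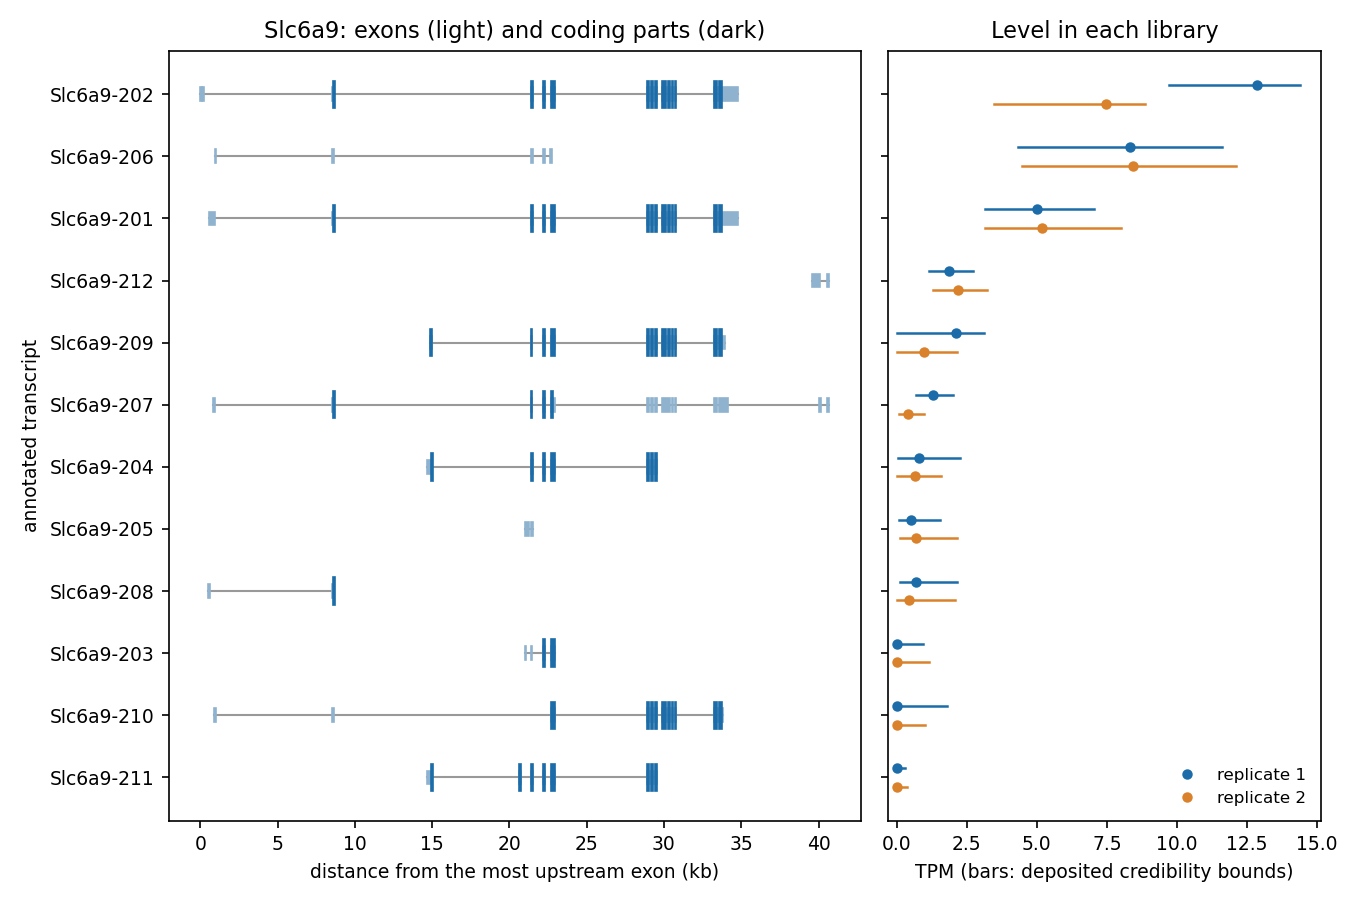
The 12 annotated Slc6a9 transcripts by distance from the most upstream exon in kb (left; the thinnest exons are drawn at a minimum width) and their TPM in each library with the deposited credibility bounds (right). Slc6a9-202 lies at 12.86 and 7.47 TPM, and Slc6a9-209, which starts downstream, has bounds that reach nearly to 0.

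The gene B4galt2 overlaps the far end of Slc6a9 by 5939 bases on the opposite strand and had 2638 and 1813 counts, and Ccdc24, also opposite, had 65.7 and 83.7. The strand setting is not given in the sources used here, so reads from the overlap cannot be told apart. The B4galt2 overlap begins at 117869260, and Slc6a9-201 and Slc6a9-202 end just past it, at 117869305 and 117869296. Only Slc6a9-207 and Slc6a9-212 run further into it, with 72.3 and 22.0 counts in replicate 1 and 16.5 and 18.9 in replicate 2. GLYT1 also serves red cell precursors. The 10 erythroid markers summed to 11180 and 10600 TPM, led by the globin genes, with Alas2, a heme synthesis gene, at 23.6 and 20.4 TPM, and 4 of the 10 were called higher in replicate 2, among them the embryonic globin gene Hbb-y (196 and 1126 TPM). Their part in the Slc6a9 level was not tested.

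The level of Slc6a11 differed between the libraries. Slc6a11 (ENSMUSG00000030307.7, chromosome 6, 114131241 to 114249952) had 63.81 TPM in replicate 1 and 44.27 in replicate 2, from 5130 and 2629 counts. Its mean of 54.0 ± 13.8 TPM lay above 85.2% of protein-coding genes. The higher value was that of replicate 1. Slc6a12, the betaine and GABA transporter, had 0.07 and 1.4 TPM. Slc6a13, the GAT2 of meninges and other barrier tissue, had 0.69 TPM in replicate 1 and 36.65 in replicate 2.

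Slc6a13 and Slc6a11 thus differed in opposite directions between the libraries. Slc6a13 was 43.0-fold (95% counting interval 29.9 to 64.1) higher in replicate 2 in scaled counts. The meninges and fibroblast markers moved the same way, with Col3a1 at 9.70 and 419.22 TPM, Col1a2 at 6.42 and 215.32 and Slc22a6 at 0 and 1.45. Their part in the Slc6a13 level was not tested.

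**Figure D4:**
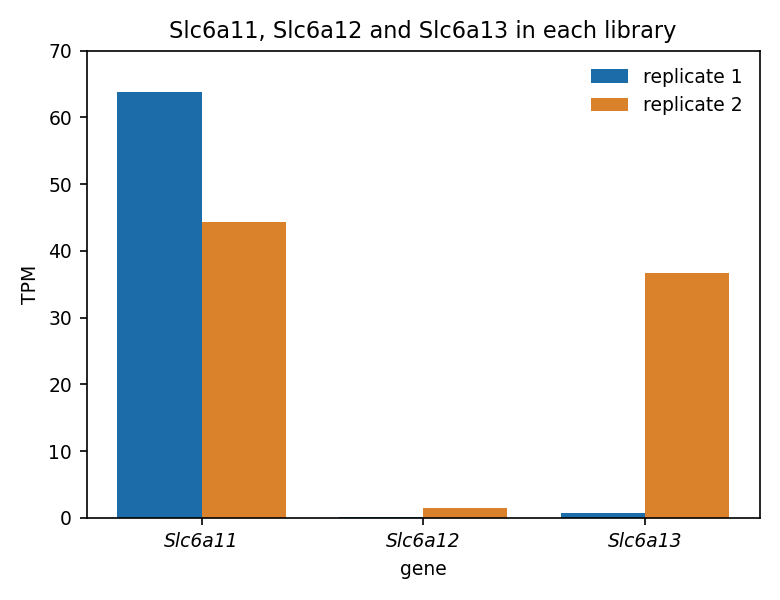
TPM of the plasma membrane GABA transporter genes Slc6a11, Slc6a12 and Slc6a13, with 1 bar for each library. In replicate 1 Slc6a11 stands alone at 63.81 TPM, whereas in replicate 2 Slc6a13 stands at 36.65 TPM, near Slc6a11 at 44.27.

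Set against the median gene, 8 of the 9 genes were lower in replicate 2. The 4 of those 8 with the smallest differences (Gad2, Slc32a1, Slc6a5 and Slc17a6) turned to higher under spike-in scaling. Ratios used TMM-scaled counts, which set the libraries to a common depth, and intervals are exact 95% intervals of the counts that cover counting error only. A gene was called at 1.5-fold or more with a mean count of at least 10. Slc6a11, Slc6a9 and Slc17a8 were so called, with replicate 1 the higher by 1.54-fold for Slc6a11 (1.47 to 1.61), 1.51-fold for Slc6a9 (1.38 to 1.65) and 2.93-fold for Slc17a8 (1.24 to 7.98). Over all 17623 genes tested, 8.44% were as much lower in replicate 2. Slc17a7 was the 1 gene called higher in replicate 2, where 10.8% of all genes were. Gad1 lay just under the threshold, with 1.48-fold (1.42 to 1.55) more in replicate 1. For the 4 genes that turned, replicate 1 exceeded replicate 2 before spike-in scaling by 1.203-fold for Slc6a5 (1.12 to 1.29), 1.19-fold for Slc32a1 (1.03 to 1.38), 1.18-fold for Slc17a6 (1.14 to 1.22) and 1.15-fold for Gad2 (1.084 to 1.23). The spike-in counts raised the median log2 ratio of all genes by 0.54, and brought Gad1, Slc6a9 and Slc6a11 to within 0.08 of equality on the log2 scale. TMM and spike-in scaling each apply 1 factor per library, so the order of the genes' ratios is the same under both. Gad1, Slc6a9 and Slc6a11 were thus lower in replicate 2 relative to Slc17a6, Slc32a1, Slc6a5 and Gad2 under both. With the deposited TPM the order shifted, and Gad2 (log2 ratio -0.26) fell below Slc6a5 (-0.17), Slc32a1 (-0.16) and Slc17a6 (-0.15). The calls of Slc6a11 and Slc6a9 ended under spike-in scaling and also with the deposited TPM, where their log2 ratios were -0.53 and -0.34.

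**Figure D5:**
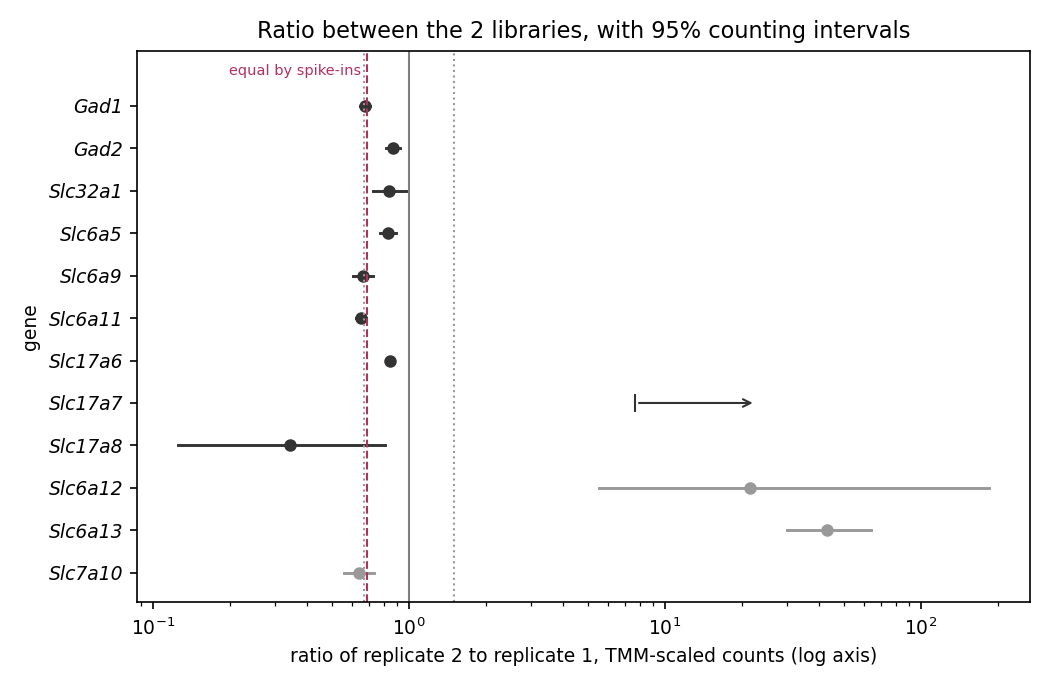
Ratio of replicate 2 to replicate 1 in TMM-scaled counts on a log axis, with exact 95% counting intervals, for the 9 genes (black) and 3 other transporter genes (grey). Dotted lines mark 1.5-fold, the dashed line marks equality under spike-in scaling, and the arrow at Slc17a7 starts at the lower end of its interval, 7.64-fold, which has no upper end.

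The radial glia and astrocyte markers, given beside Slc6a11 and Slc6a9, did not move as a group. All 12 were measured, 2 of them (Slc1a2 and Slc1a3) also being on the glutamate list, and they summed to 2725 and 2749 TPM. Of them, Aqp4 (13.34 and 3.61 TPM in replicates 1 and 2) and Gfap (0.70 and 0.13) were called lower in replicate 2, and Gja1 (29.47 and 88.87) higher. Of other carriers, Slc7a10, a carrier of glycine and small amino acids, had 22.35 and 14.24 TPM and was called lower in replicate 2, while Slc1a3, the glutamate transporter of radial glia, had 162.08 and 186.28 and was not called. None of the 12 was at 0 counts. The part of glial cells in the Slc6a11 and Slc6a9 ratios was not tested.

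Genes that supply and break down these transmitters were mostly expressed, and few differed between the libraries. Of 52 genes on the lists of synthesis, uptake and related transporter families, 35 reached 1 TPM in both libraries. Of the 42 with a ratio, 5 were called higher in replicate 2 and 4 lower, shares near the 10.8% and 8.44% of all genes, and under spike-in scaling 16 and 1 were, where 44.1% and 2.36% of all genes were. Their median log2 ratio was -0.09, against 0 for all genes tested and -0.27 for the 9 transmitter genes.

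In the list of GABA uptake and breakdown, 7 of 9 genes reached 1 TPM in both libraries. Abat, which breaks down GABA, had 66.99 and 93.95 TPM and was not called. Slc6a12 and Slc6a13 were the 2 called, both higher in replicate 2. Slc6a6, the taurine transporter, had 46.53 and 46.51 TPM, and Aldh5a1, which acts after Abat, had 12.21 and 13.37.

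In the glycine list 8 of 9 genes reached 1 TPM in both. Dld (103.67 and 122.16 TPM) and Gcsh (87.97 and 86.43), of the glycine cleavage system, were highest, and Gldc, its decarboxylase, had 4.90 and 4.39. Shmt2, which makes glycine from serine in mitochondria, had 25.10 and 25.35. Slc38a5, a carrier of glutamine and glycine, was called higher in replicate 2 (19.21 and 33.26 TPM) and Slc7a10 lower.

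In the glutamate list 13 of 14 genes reached 1 TPM in both. Glul, the glutamine synthetase of glia, had 174.21 and 153.43 TPM. Of the plasma membrane glutamate transporters, Slc1a3 was highest, then Slc1a1 (31.08 and 34.05) and Slc1a2 (32.22 and 26.78), which overlapped, and then Slc1a6 (8.33 and 7.62). Slc1a7 had 0 and 1 count. Gls2, at 2.24 and 1.68 TPM, was the only gene of this list called, lower in replicate 2.

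Of the 6 other SLC17 genes, Slc17a5, the lysosomal sialic acid transporter, reached 1 TPM (17.76 and 15.69), and each of the other 5 had at most 6 counts in a library. Slc17a6 was thus the highest of the family in both libraries. Of the 11 other SLC6 genes listed, Slc6a15 (33.89 and 35.31 TPM), Slc6a17 (13.30 and 12.16) and Slc6a20a (1.01 and 3.97) reached 1 TPM in both. Slc6a15 and Slc6a17 carry neutral amino acids in neurons. The acetylcholine and monoamine vesicular transporter genes Slc18a3 (24.82 and 26.62 TPM) and Slc18a2 (8.14 and 9.07) lay below Slc17a6, and Slc18a3 lay above Slc32a1.

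Transcription factors of both neuron classes were present beside their transmitter genes. Of 15 inhibitory factors, 13 reached 1 TPM in both libraries, led by Pax8 (51.39 and 46.40 TPM), Tfap2b (38.42 and 41.84) and Lhx1 (38.27 and 38.75). Of 14 excitatory factors, 9 did, led by Pou4f1 (65.66 and 71.16), Isl1 (23.63 and 70.15) and Uncx (35.44 and 30.90). Isl1, which motor and sensory neurons also express, was called higher in replicate 2, the direction of the sensory ganglion markers. The list sums were 222 and 222 TPM for the inhibitory factors and 183 and 235 for the excitatory ones.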

How the data were processed

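Total RNA of 1 group of 2 neural tube libraries was measured. The authors aligned reads to mm10 and used GENCODE M4, per the texts deposited with the files. For aligner, quantifier and strand setting, names were not given in the sources used here. Expected counts were deposited without normalisation, the deposited TPM and FPKM values are scaled by length and depth, and the deposited percent columns give each transcript's part of its gene. The deposited score columns hold posterior mean TPM and its credibility bounds, whose level is not stated. They come from another estimate than TPM, so a TPM value can lie outside them.

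Symbols, biotypes and exons came from GENCODE M21 (GRCm38, the assembly of mm10) by identifier without version: 42462 of 43346 gene rows matched, and 27 of the 30 transcripts of the 9 genes had the same length. Spike-ins took 3.31% and 2.29% of counts and stayed out of library sizes. Counts were rounded, and ratios used TMM from edgeR 4.0.16 under R 4.3.3, adding a prior count of 0.5. Intervals are Clopper-Pearson. Amplified reads are not independent molecules, so these intervals, like the floor of 3 counts, reflect counting error alone. DESeq2 1.42.0 gave alternative size factors. The remaining work ran in Python 3.11.15, with SciPy 1.17.1 for intervals, pandas 2.3.3 and NumPy 2.4.6 for tables, and matplotlib 3.10.9. The ratio step was tested on simulated data.

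The genes and the 18 lists with 173 entries were chosen with earlier results of these data known, and 1 entry (Drgx) had no row. All 9 genes are named, with genes of the synthesis, uptake and transporter lists. Of the factor and marker lists, the 3 highest, those at 0 counts and those called at a mean count of at least 100 could be named, as could genes that overlap the 9. Gfap, Alas2 and Gad1-ps fall outside that rule, and their choice followed a look at their values. With 2 libraries no gene was matched by pattern. Some results on transporter, enzyme and marker genes are not reported here.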

Additional observations from a re-analysis of the deposited data

How the results depend on the processing

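Of 96 alternative values, 72 stayed within the spread between the libraries, the counting interval or 1.5 times the count, and 4 changed sign. The 72 include values that could not have moved. With 2 libraries, leaving out 1 of them cannot take a mean past the SD. Shares of a summed level are also the same by TPM, FPKM and counts per kilobase. Under spike-in scaling the log2 ratio of replicate 2 to replicate 1 became 0.34 for Gad2, 0.29 for Slc32a1, 0.28 for Slc6a5 and 0.30 for Slc17a6. It left 1 of the 9 genes called lower in replicate 2 in place of 3 (2.36% of all genes), as did the deposited TPM (1, with 6.57%) and a 2-fold threshold (1, with 3.09%), and the gene left each time was Slc17a8. A minimum mean count of 100 removed the only gene called higher (0 in place of 1, with 6.93% of all genes), since Slc17a7 and Slc17a8 fall under it by construction. Among the supply and transport genes, spike-in scaling called 16 higher and 1 lower in place of 5 and 4, where 44.1% and 2.36% of all genes were called. The difference of Slc17a6 over Slc32a1 was 3.57 with a pseudocount of 0.1, 3.33 with FPKM and 3.59 from counts per kilobase, against 3.43. That of Slc6a5 over Slc32a1 was 0.61 with a pseudocount of 0.1, 0.52 with FPKM, 0.57 with posterior mean TPM and 0.61 from counts per kilobase, against 0.56. These moved past an SD near 0 and kept their direction. No paired analysis was possible because there is 1 group. Depth limits Slc17a7 and Slc17a8, with 24 or fewer and 26 or fewer counts a library.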
